A study of Saccharomyces cerevisiae with 28 samples.

Results

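CBC2 and STO1 encode the small and the large subunit of the nuclear cap-binding complex of budding yeast, Saccharomyces cerevisiae. Both genes were followed with every probe that the platform annotation gives them: 1 probe of CBC2 (YPL178W) and 3 of STO1 (YMR125W), 4 of 1457 named probes and 2 of 982 genes. The pair was chosen by the measured log ratio of CBC2 on the arrays labelled isy1, which stood out, so the values of both genes on those arrays are given as a description, with no test.

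The complex binds the methylated cap at the start of RNA polymerase II transcripts in the nucleus. Cbc2 contacts the cap through an RNA recognition motif, and Sto1 is the large scaffold that holds Cbc2 in its cap-binding form. In yeast the complex aids the first step of spliceosome assembly, where the U1 snRNP meets the 5′ splice site, and it stays with the RNA through export until the cytoplasmic cap-binding factor eIF4E takes its place. The STO1 gene has an intron and CBC2 has none.

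The study asked whether strains lacking non-essential genes with genetic or physical links to RNA processing splice their RNA differently from wild type. Splicing-specific arrays with 2 colours compared mutant and wild-type RNA, on 28 arrays that form 14 dye-swapped pairs: the mutant was in Cy5 on the first array of a pair and in Cy3 on the second. Strains labelled csn12, YPR045C, ist3, csn9, pci8 and isy1 were in log phase at 30 °C, with 1 pair each. Strains labelled tgs1 and ynr004w had 1 pair at 30 °C and 1 pair at each of 10, 25 and 40 min after a shift to 16 °C, and every mutant was set against wild type grown the same way. By function, CSN12 and YPR045C (THP3) encode partners in a complex linked to transcription and mRNA maturation, CSN9 and PCI8 encode COP9 signalosome subunits, IST3 encodes a subunit of the RES splicing complex, ISY1 a Prp19-associated splicing factor, and TGS1 the enzyme that hypermethylates snRNA and snoRNA caps. YNR004W (SWM2) encodes a protein that binds Tgs1. Strain background, mating type and the number of clones per strain are not stated.

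Each value below is a log ratio of mutant over wild type, read as log2. Its base and its direction are not stated, and the direction is likely rather than settled: if it ran the other way, every sign, rank and fold below would turn. A pair mean is the mean of the 2 arrays of a pair, its standard error (SE) comes from a model over all probes, and "called" means an adjusted p under 0.05 in limma. Because 8 of 10 groups hold 1 pair, the spread was estimated from the 16 °C time points alone and assumed to hold for every group. Both arrays of a pair are taken to carry the same RNA extracts, so they were counted as 1 replicate in the main fit. Values given over single arrays come from another fit, with a dye term, that counted each array separately. Its p-values therefore do not measure spread between replicates alone. In the main fit the pairs of a strain at 16 °C are different time points taken as replicates. Their spread therefore also holds any change with time. Whether the pairs came from separate cultures is not stated, so besides that change the p-values may measure technical spread only. The array shows the amount of RNA in a culture, and fewer cells with the RNA and less RNA per cell cannot be told apart.

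Of the 8 deleted genes, 3 had a named probe. IST3 stood at 0.15 on the ist3 arrays (adjusted p = 0.0669) and ISY1 at -0.12 on the arrays labelled isy1 (adjusted p = 0.116), and neither was called lower. TGS1 stood at -0.09 in tgs1 at 30 °C (adjusted p = 0.377) and at -0.28 in tgs1 at 16 °C (adjusted p = 0.000326), with a difference between temperatures of -0.18 (adjusted p = 0.215). It was about as low in strains that were not labelled as lacking it, at -0.31 in YPR045C, -0.28 in csn9 and -0.25 in ist3, with 1 pair each. Over single arrays TGS1 was called lower in tgs1 at 16 °C (adjusted p = 0.0408). It was not called over single arrays in YPR045C, csn9 or ist3 (adjusted p = 0.606, 0.47 and 0.281). Whether these probes lie within the deleted stretch is not stated. Mating-type genes also moved with strain. The 4 alpha-cell markers were called higher in ist3 and YPR045C and called lower in tgs1 and ynr004w at both temperatures. Of all 982 genes, 56.5% were called in ist3, 18.9% in YPR045C, 5.7% and 46.2% in tgs1 at 30 and 16 °C, and 6.01% and 32.9% in ynr004w. In ist3 they lay between 1.90 and 5.24, and at 16 °C between -4.24 and -1.18 in tgs1 and between -4.62 and -1.51 in ynr004w. In csn12, 1 of the 4 was called, MATALPHA1 at 1.06 (adjusted p = 0.000154). In pci8, 2 of the 4 were called higher, where 32.2% of all genes were called, with a median of 0.24 over the 4. Neither held over single arrays. On the arrays labelled isy1 the 4 lay between -0.06 and 0.34, and the highest 2 were MATALPHA1 at 0.33 (adjusted p = 0.0453, and 0.264 over single arrays) and MF(ALPHA)1 at 0.34 (adjusted p = 0.193). The 2 measured a-cell markers of 4 listed, MFA1 and MFA2, had the opposite sign in all 6 groups of ist3, YPR045C, tgs1 and ynr004w, at -1.47 and -2.10 in ist3, 1.60 and 2.62 in tgs1 at 16 °C, and 1.72 and 2.58 in ynr004w at 16 °C. They stood at -1.13 and -0.73 in csn12, both called lower, and at 0.26 and 0.63 on the arrays labelled isy1, where MFA2 was called higher (adjusted p = 0.000789, and 0.00526 over single arrays). In pci8, 1 of these 2 was called lower, with a median of -0.35 over both, and neither was called over single arrays. The part of mating type in the results for CBC2 and STO1 was not tested.

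The 24 spots of the 4 probes, 6 for each, had a value on every array. The 3 STO1 probes are called X, Y and Z here. Neither the stretch of the gene that a probe matches nor its sequence is stated. The 4 probes had different patterns. Over the 14 pair means CBC2 correlated at r = 0.06 with probe X, -0.35 with Y and 0.13 with Z, and without the isy1 pair at 0.06, -0.67 and 0.60. Within STO1, X correlated at -0.07 with Y and -0.14 with Z, and Y at -0.74 with Z. These points share arrays and dye labelling, and the correlations are descriptions only.

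CBC2 was lower on the arrays labelled isy1 than in any other strain. The log ratio was -2.64 with the mutant in Cy5 and -1.34 with the mutant in Cy3. The pair mean of -1.99 ± 0.09 (SE, 1 pair) is a level in the mutant of 0.251 of wild type, or 3.98-fold less, if the values are log2 of mutant over wild type. With the direction turned it would be 1.99, or 3.98-fold more. All 12 spots of the pair lay below 0, from -3.09 to -2.05 on the first array and from -2.05 to -0.85 on the second.

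Among all 1456 probes tested, CBC2 was the 4th lowest on the arrays labelled isy1. The 3 lower probes belonged to ribosomal protein genes with introns, RPL7B at -2.17, RPS14B at -2.10 and RPS22B at -2.05, and the next above it were RPS17B at -1.57 and RPL36A at -1.53. As a gene, with the probes of each gene averaged, CBC2 was the lowest of 982, and the next was RPS14B at -1.25; with the direction turned it would be the highest. Among the 747 genes with a single probe, the next lowest after CBC2 was the histone gene HTA1 at -1.19, followed by TUF1, a mitochondrial translation factor gene, at -0.79. Across the array, 42.9% of probes were called in this comparison, which was the one that led to the choice of CBC2, and nothing is read from that share.

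**Figure D1:**
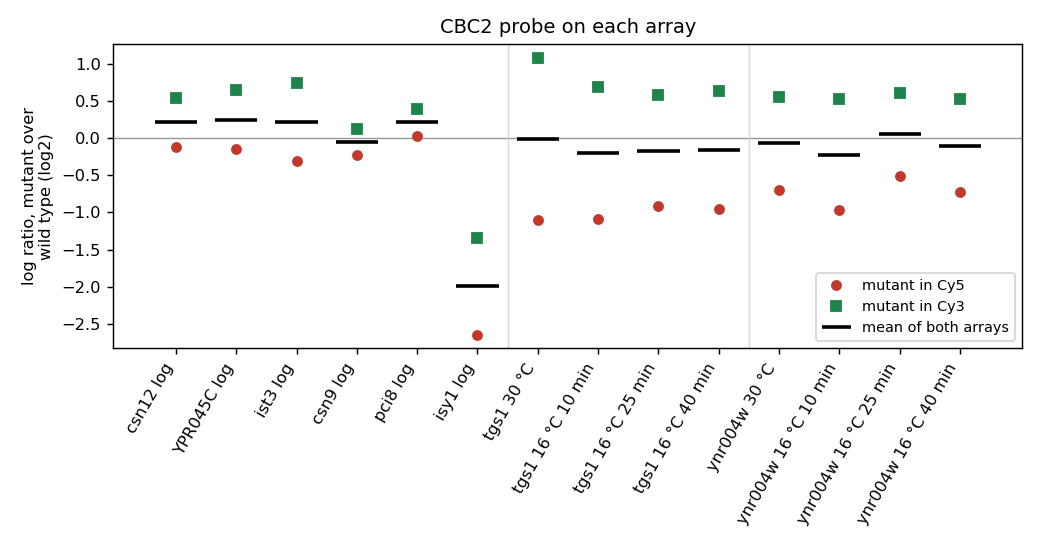
Log ratio of the CBC2 probe (mutant over wild type, log2) on each of the 28 arrays, by strain and time point, with the 2 dye orientations and the pair mean marked. The arrays labelled isy1 sit at -2.64 and -1.34, and every other pair mean lies between -0.22 and 0.25.

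In the other 13 pairs the CBC2 pair mean lay between -0.22 and 0.25. The lowest of them lay 1.77 above the isy1 pair, given without a test because CBC2 was chosen on that pair. In the order of the 13 pair means no neighbours differed by more than 2 SE of their difference (SE 0.12). Pair means further apart in that order can differ by more. The CBC2 probe was also one of the most dye-dependent on the array. With the mutant in Cy5 it read lower than with the mutant in Cy3 in 14 of 14 pairs. The median distance between the 2 arrays of a pair was 1.25, as large as or larger than that of 93.6% of probes, whose median was 0.49. Only the pairs labelled isy1 and pci8 had one sign on both arrays.

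CBC2 was called in 2 of the 9 other groups, ist3 and tgs1 at 16 °C, where 57.4% and 49.7% of all probes were called. Neither call held when single arrays were fitted with a dye term or when the tgs1 pair at 10 min or at 25 min was left out. In ist3 the arrays read -0.30 and 0.74, on opposite sides of 0, and the pair mean was 0.22 ± 0.09 (SE, 1 pair, adjusted p = 0.049, and 0.487 over single arrays). In tgs1 at 16 °C the arrays read -1.08 and 0.69 at 10 min, -0.92 and 0.58 at 25 min, and -0.95 and 0.63 at 40 min. All 3 pair means there lay below 0, and their mean was -0.17 ± 0.05 (SE, 3 pairs, adjusted p = 0.0126, and 0.354 over single arrays).

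CBC2 was not called in the remaining groups. YPR045C read -0.15 and 0.64 (mean 0.25, adjusted p = 0.0746), csn12 read -0.11 and 0.54 (mean 0.21, adjusted p = 0.0827) and pci8 read 0.03 and 0.40 (mean 0.21, adjusted p = 0.084). Their 95% intervals were 0.06 to 0.43, 0.02 to 0.40 and 0.03 to 0.40. In csn9 the arrays read -0.23 and 0.13, with a mean of -0.05 (95% interval -0.24 to 0.14). The strains tgs1 and ynr004w at 30 °C had pair means of -0.01 and -0.07, from arrays at -1.10 and 1.08 and at -0.69 and 0.55. In ynr004w at 16 °C the mean was -0.09 ± 0.05 (SE, 3 pairs, adjusted p = 0.182).

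STO1 had its highest value in ist3, and 1 of its 3 probes carried it. Probe X read 1.78 and 1.56 there, and its pair mean of 1.67 ± 0.10 (SE, 1 pair) is a 3.19-fold higher level in the mutant if the values are log2 of mutant over wild type. With the direction turned it would be -1.67, or 0.314 of wild type. All 12 spots were above 0, from 1.60 to 2.07 on the first array and from 1.15 to 2.11 on the second. Probe X was the 10th highest of 1456 probes (10th lowest with the direction turned) and was called with an adjusted p of 5.21e-07, and 3.3e-10 over single arrays. In ist3, 3 of the 4 CBC2 and STO1 probes were called, beside 57.4% of all probes.

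The other STO1 probes did not follow X in ist3. Probe Y read 0.14 and -0.71, with a pair mean of -0.29 (adjusted p = 0.0102, 0.419 over single arrays, and 0.0907 at -0.16 with the median over spots), and probe Z read -0.33 and 0.10, with a mean of -0.12 (adjusted p = 0.446). Probe X exceeded the mean of Y and Z by 1.87 ± 0.11 (adjusted p = 2.78e-08). Of 701 probes in genes with 3 or more, it ranked 6th from the top in ist3, after ASC1 at 2.64, RPL35A at 2.12 and probes of RPS0B, RPL33A and RPS30B, genes for ribosomal proteins or a ribosome-bound protein. By the same measure 67.2% of these probes were called in ist3, and all 3 STO1 probes were among them. The 3 differences are built from the same 3 probes and are not independent. Averaged over its probes, STO1 rose by 0.42 ± 0.07 (adjusted p = 0.000853), but with the median of the 3 probes on each array it stood at 0.12 (adjusted p = 0.191), and was not called. With that median STO1 was called higher where its mean was not, at 0.35 in tgs1 at 16 °C (adjusted p = 3.84e-05), 0.32 in ynr004w at 16 °C (adjusted p = 0.000137) and 0.40 in ynr004w at 30 °C (adjusted p = 0.00759), beside means of 0.03, 0.09 and 0.02. The median of 3 probes on an array is the value of 1 of them. In ynr004w at 30 °C it was that of X on both arrays (0.47 and 0.33), and in ist3 that of Y (0.14) and then Z (0.10). These medians are therefore not separate from the single probes, and add no result for the gene as a whole.

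**Figure D2:**
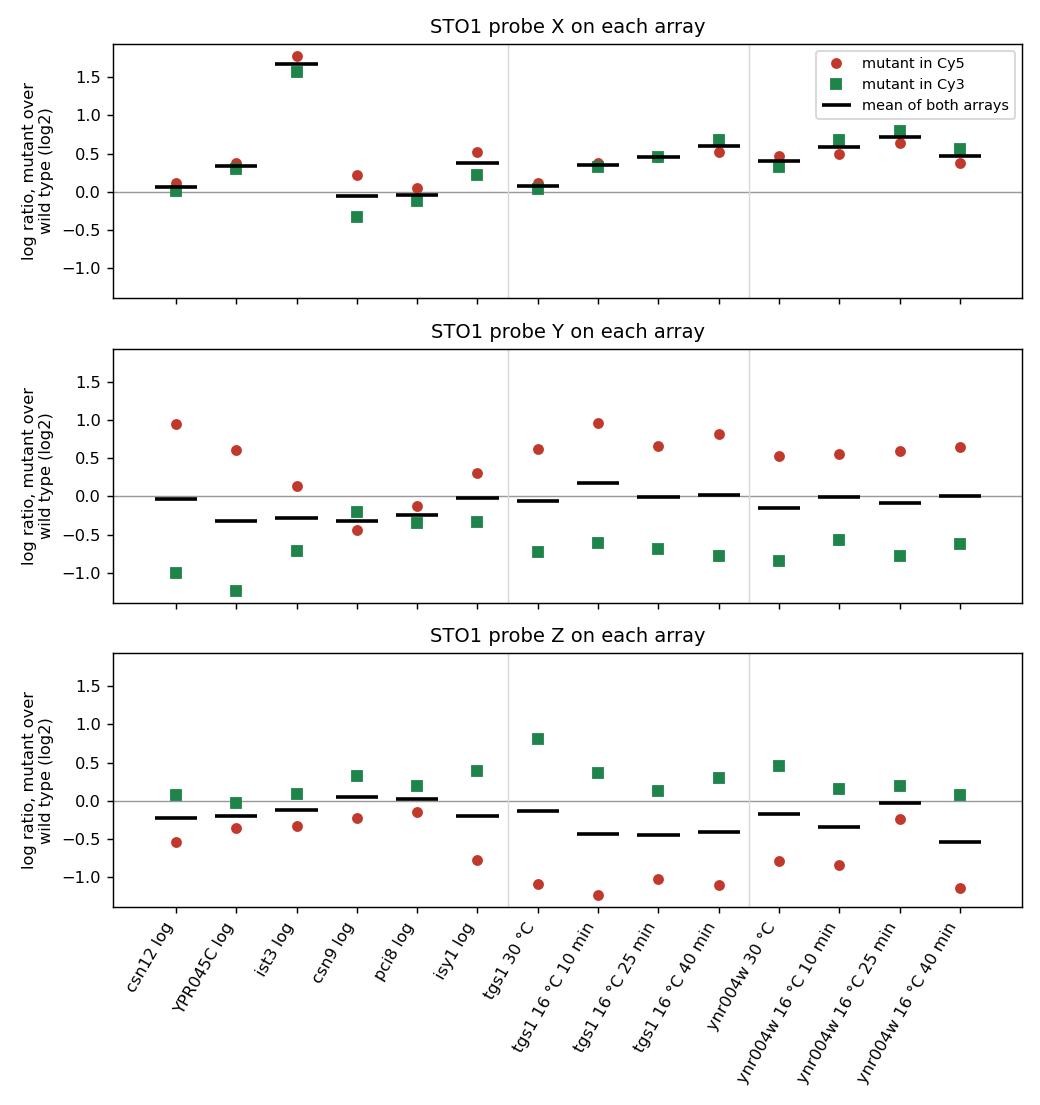
Log ratio of the 3 STO1 probes (mutant over wild type, log2) on each of the 28 arrays, by strain and time point, with both dye orientations and the pair mean marked. Probe X reads 1.78 and 1.56 in ist3 with its 2 arrays close together, while Y and Z split by dye orientation in most pairs.

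Probe X was the least dye-dependent of the 4. The median distance between its 2 arrays was 0.16, at or above that of only 8.2% of probes, and it had one sign on both arrays in 12 of 14 pairs. Probe Y had a median distance of 1.34 (95.1%) and one sign in 2 pairs, and Z had 1.07 (88.8%) and one sign in 1 pair. In the order of its 14 pair means, X had 1 gap of more than 2 SE, between ist3 and the next pair (0.95, SE of the difference 0.14). Y and Z had none, so no neighbours in their order differed by more than 2 SE. Pair means further apart can differ by more: Y ran from -0.32 to 0.18 and Z from -0.53 to 0.05 (SE of a difference 0.11 and 0.18).

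STO1 probe X was also higher in both cold-shifted strains. In tgs1 it read 0.38 and 0.32 at 10 min, 0.46 and 0.46 at 25 min, and 0.52 and 0.67 at 40 min after the shift to 16 °C. All 6 arrays were above 0, and the mean was 0.47 ± 0.06 (SE, 3 pairs, adjusted p = 5.84e-05, and 1.2e-05 over single arrays). In ynr004w it read 0.50 and 0.67 at 10 min, 0.64 and 0.80 at 25 min, and 0.38 and 0.56 at 40 min. These 6 arrays too were all above 0, with a mean of 0.59 ± 0.06 (SE, 3 pairs, adjusted p = 1.1e-05, and 4.5e-07 over single arrays).

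At 16 °C, 3 of the 4 member probes were called in tgs1 beside 49.7% of all probes, and 2 of 4 in ynr004w beside 35.7%. The other STO1 call in each was probe Z, which was lower. In tgs1 the pair means of Z were -0.43, -0.44 and -0.40, with a mean of -0.43 ± 0.07 (adjusted p = 0.00072, and 0.015 over single arrays). In ynr004w they were -0.34, -0.02 and -0.53, with a mean of -0.30 ± 0.07 (adjusted p = 0.00853, and 0.126 over single arrays). Without the ynr004w pair at 40 min it was -0.18 (adjusted p = 0.0893). Z lay below 0 with the mutant in Cy5 and above 0 with it in Cy3 in all 6 of these pairs. Probe Y was not called in either strain, at 0.06 and -0.03. X rose against the mean of Y and Z by 0.65 ± 0.06 in tgs1 and 0.75 ± 0.06 in ynr004w (adjusted p = 7.42e-07 and 2.31e-07). Such differences were called for 70% and 68.3% of the 701 probes, and X ranked 60th and 44th from the top.

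At 30 °C, X read 0.12 and 0.04 in tgs1 (mean 0.08, adjusted p = 0.672) and 0.47 and 0.33 in ynr004w (mean 0.40 ± 0.10, adjusted p = 0.0273, and 0.0873 over single arrays). Of the 4 member probes 0 were called in tgs1 at 30 °C, with 0 at an unadjusted p under 0.05, and 1 was called in ynr004w. That call was lost without the tgs1 pair at 25 min (adjusted p = 0.0542), which enters through the shared spread. The shares of all probes were 11.5% and 10.4%.

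The shift itself was tested as the 16 °C value minus the 30 °C value of each strain. For X it was 0.39 ± 0.11 in tgs1 (95% interval 0.14 to 0.64, adjusted p = 0.127) and 0.19 ± 0.11 in ynr004w (95% interval -0.05 to 0.44, adjusted p = 0.491). CBC2 shifted by -0.16 (95% interval -0.38 to 0.05) and -0.02 (95% interval -0.24 to 0.20), Y by 0.12 and 0.13, and Z by -0.29 and -0.13. In limma 0 of these 8 shifts were called, and 1 of 8, that of X in tgs1, had an unadjusted value under 0.05, over pairs as over single arrays. Among all probes 0.481% were called in tgs1 and 0% in ynr004w. Over pair means, 274 of 1456 in tgs1 and 186 in ynr004w had an unadjusted p under 0.05. Over single arrays 51 and 44 did. The 30 °C value rests on 1 pair in each strain. Against the other 2 probes, X shifted by 0.48 and Z by -0.54 in tgs1, the same adjusted p of 0.0485 for both, where 4.85% of the 701 probes were called. Both calls were lost over single arrays (adjusted p = 0.743 and 0.786).

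Between tgs1 and ynr004w at 16 °C no member probe was called, none had an unadjusted p under 0.05 over pairs or over single arrays, and 0.275% of all probes were called. The difference of X was -0.12 (95% interval -0.30 to 0.05) and that of CBC2 was -0.08 (95% interval -0.24 to 0.07). The intervals for Y and Z were -0.05 to 0.23 and -0.35 to 0.10.

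Fitted by time point over single arrays, X was called at 25 and 40 min in tgs1 (adjusted p = 0.0242 and 0.00311) and not at 10 min (adjusted p = 0.124). In ynr004w it was called at 10, 25 and 40 min (adjusted p = 0.00695, 0.000656 and 0.0214). In these fits 4.81%, 7.07% and 7.62% of all probes were called in tgs1 in the order of the times, and 4.26%, 6.8% and 6.32% in ynr004w. The difference between time points was not tested.

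**Figure D3:**
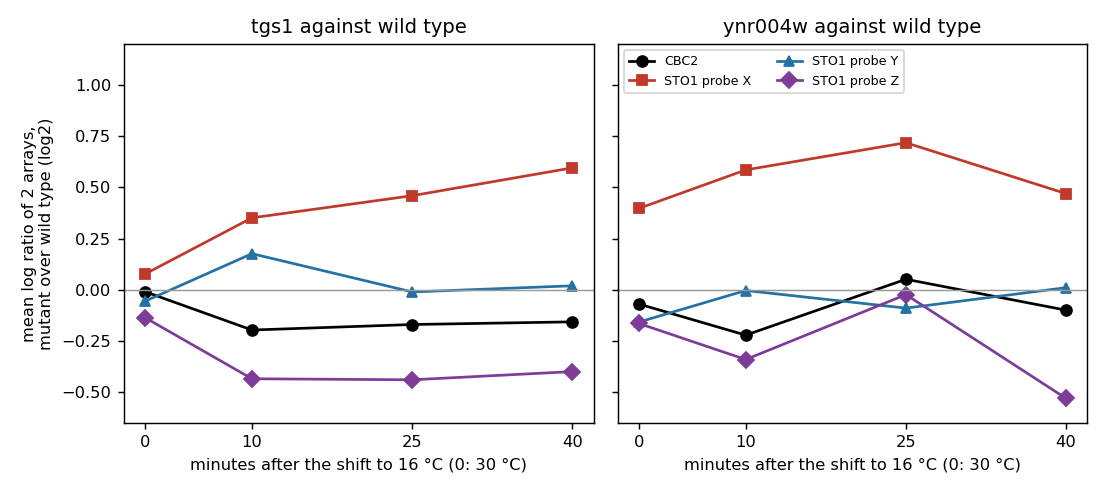
Pair mean log ratio (mutant over wild type, log2) of the CBC2 probe and the 3 STO1 probes against minutes after the shift to 16 °C, with 30 °C at 0 min, in tgs1 and ynr004w; each point is 1 pair. STO1 probe X lies above the other 3 probes at every point, from 0.08 to 0.60 in tgs1 and from 0.40 to 0.72 in ynr004w.

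In the other log-phase strains STO1 moved less. X was called in YPR045C, where it read 0.37 and 0.30 (mean 0.34 ± 0.10, adjusted p = 0.0407, and 0.271 over single arrays). This call was lost without the tgs1 pair at 25 min (adjusted p = 0.0666) or the ynr004w pair at 10 min (adjusted p = 0.0528). Y stood at -0.32 in YPR045C (adjusted p = 0.0217) from arrays at 0.60 and -1.24, on opposite sides of 0, and at -0.13 with the median over spots (adjusted p = 0.235). Those made 2 of the 4 member probes in YPR045C, beside 14.5% of all probes.

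In csn9, 1 of 4 member probes was called beside 20.5% of all: probe Y fell by 0.32 (arrays -0.44 and -0.20, adjusted p = 0.0167). In pci8 it was also 1 of 4, beside 28%: Y fell by 0.24 (arrays -0.13 and -0.35, adjusted p = 0.0404). These were the only pairs in which Y had one sign on both arrays, and neither call held over single arrays (adjusted p = 0.692 and 0.712). The pci8 call was also lost without the ynr004w pair at 10 min (adjusted p = 0.054) or at 40 min (adjusted p = 0.0596). In csn12, 0 of 4 were called in limma beside 30.7% of all probes. Over pairs 1 of them, CBC2, had an unadjusted p under 0.05, as had 624 of all 1456 probes. Over single arrays none had, beside 245 of all probes. Probe X read 0.11 and 0.02 in csn12, 0.23 and -0.33 in csn9, and 0.04 and -0.12 in pci8. Its 95% intervals in these strains were -0.15 to 0.28, -0.27 to 0.16 and -0.25 to 0.17.

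Over the 9 groups tested, 13 of 36 member values were called from pair means and 4 of 36 from single arrays. The 4 were X in ist3, tgs1 at 16 °C and ynr004w at 16 °C, and Z in tgs1 at 16 °C. Single arrays called 19.2%, 22.9% and 16.5% of all probes in those groups. Of the 27 differences between a STO1 probe and the other 2, 9 were called from pair means and 7 from single arrays. The 7 were all 3 probes in ist3 and X and Z in tgs1 and ynr004w at 16 °C, where single arrays called 42.9%, 49.1% and 48.1% of the 701 probes.

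Besides the calls above, X exceeded the other 2 probes by 0.59 ± 0.11 in YPR045C (adjusted p = 0.00703) and by 0.56 ± 0.11 in ynr004w at 30 °C (adjusted p = 0.0037), where 12.1% and 17.3% of the 701 probes were called. Neither held over single arrays (adjusted p = 0.234 and 0.123). In csn12, csn9, pci8 and tgs1 at 30 °C it exceeded them by 0.19, 0.09, 0.07 and 0.17, none of them called, where 20%, 11.7%, 20.7% and 21% of these probes were.

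**Figure D4:**
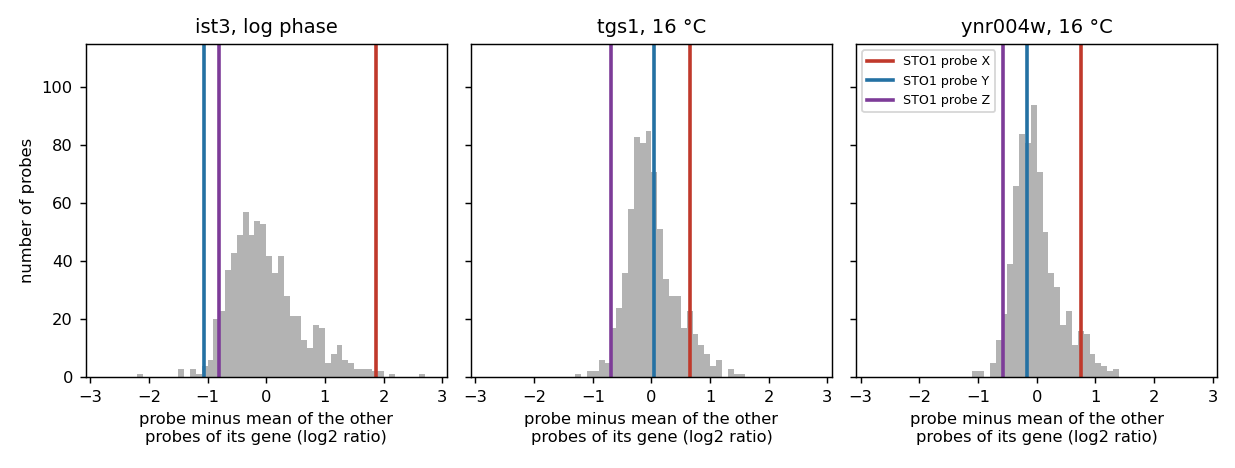
Histograms of the difference between a probe and the mean of the other probes of its gene (log2 ratio) over the 701 probes of genes with 3 or more probes, in ist3, tgs1 at 16 °C and ynr004w at 16 °C, with the 3 STO1 probes as lines. Probe X lies at 1.87, 0.65 and 0.75, to the right of most probes in each panel.

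On the arrays labelled isy1, STO1 did not share the low value of CBC2. X read 0.52 and 0.22 (mean 0.37), Y read 0.30 and -0.33 (mean -0.02), and Z read -0.77 and 0.39 (mean -0.19). The mean over the 3 probes was 0.05, and X lay 0.47 above the mean of the other 2, again as a description.

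The genes whose values were most like those of CBC2 over the 14 pair means were RPL7B (r = 0.934), RRP45 (0.933), RPS16A (0.921), RPL35B (0.921) and RPL19A (0.916). Without the isy1 pair these values were 0.511, 0.595, 0.604, 0.761 and 0.784, and the 5 genes ranked 201st, 153rd, 145th, 45th and 36th, so the likeness rested on the pair by which CBC2 was chosen. RRP45 encodes an exosome subunit, and the other 4 encode ribosomal proteins. For STO1 they were RPL36B (0.901), GAR1 (0.789), SPB1 (0.748), MAK3 (0.748) and the tRNA gene tC(GCA)Q (0.747). Probe by probe, X was most like probes of RPL27A (0.928), YPR063C (0.922) and RPL39 (0.917), Y like CRZ1 (0.907), CBT1 (0.886) and YAP1 (0.88), and Z like YPR063C (0.841), PHO85 (0.833) and NPT1 (0.817). The CBC2 probe was most like probes of RPS8B (0.953), RPL7B (0.944) and RRP45, and without the isy1 pair these had r = 0.714, 0.786 and 0.595 and ranked 110th, 48th and 200th.

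Genes that work with the cap-binding complex were set beside it at the gene level. Of the 4 measured import and binding partners (5 listed), 3 were called higher in ist3 and none lower, where 56.5% of all genes were called: SRP1, the importin alpha that carries the complex into the nucleus, at 0.45, NPL3, an mRNA-binding protein that associates with the complex, at 0.44, and MTR10, the importin of Npl3, at 0.15. The median of the 4 was 0.29 against -0.01 for all genes. None of the 3 was called over single arrays. In csn12, 2 of the 4 were called higher (median 0.23), where 36.8% of all genes were called. MTR10 was the 1 called in YPR045C (0.24), csn9 (0.245), pci8 (0.241) and tgs1 at 30 °C (0.233), each time higher. The shares of all genes there were 18.9%, 22%, 32.2% and 5.7%. At 16 °C, 2 were called higher and 2 lower in tgs1, and 1 lower in ynr004w, beside 46.2% and 32.9%. None of these held over single arrays. On the arrays labelled isy1 the median of the 4 was -0.24, with HMT1, the arginine methyltransferase that modifies Npl3, at -0.28, SRP1 at -0.27, MTR10 at -0.21 and NPL3 at -0.02.

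All 13 listed genes of the U1 snRNP and the commitment complex, which the cap-binding complex contacts on the first intron, were measured. In ist3, 5 were called higher and 4 lower, where 56.5% of all genes were called. Of these, PRP40 (0.57) and SUB2 (0.39) held over single arrays (adjusted p = 0.005 and 0.00492). In csn12, 3 were called higher and 3 lower, with PRP39 at 0.54 and PRP40 at 0.37, where 36.8% of all genes were called. PRP39 held there over single arrays (adjusted p = 0.0468). In YPR045C, 3 were called higher, led by PRP39 at 0.51, and none lower, where 18.9% of all genes were called. In tgs1 at 16 °C, 1 was called higher and 5 lower, with SNU56 at -0.20, where 46.2% of all genes were called. SNU56 held there over single arrays (adjusted p = 0.0151). The group medians in these 4 comparisons lay between -0.007 and 0.065, beside -0.019 to -0.001 for all genes.

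Of the 4 measured cap synthesis genes (5 listed), 3 were called lower in YPR045C, where 18.9% of all genes were called: CET1, the RNA triphosphatase, at -0.33, TGS1 at -0.31 and CEG1, the guanylyltransferase, at -0.21. In ist3, where 56.5% of all genes were called, CEG1 stood at -0.43 and TGS1 at -0.25, both called lower. No cap synthesis gene was called over single arrays in either strain. Of the 2 measured cytoplasmic cap-binding genes (5 listed), CAF20, which binds the cap-binding protein eIF4E, was called higher in ist3 at 0.35. It was called lower in csn12 at -0.22, where 36.8% of all genes were called. Neither call held over single arrays (adjusted p = 0.133 and 0.512). Of the 9 measured decapping and decay genes (13 listed), 3 were called higher and 2 lower in ist3, with PAT1 at -0.52, a share close to the 56.5% of all genes. Of the 3 nonsense-mediated decay genes, NAM7 (0.33) and UPF3 (0.20) were called higher in ist3, beside the same 56.5%. In csn9 UPF3 was called lower at -0.53 and NAM7 higher at 0.48, where 22% of all genes were called. No gene of these last 2 lists was called over single arrays in ist3. In csn9, 1 of the 3 nonsense-mediated decay genes was called lower over single arrays and none higher.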

How the data were processed

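RNA was compared on 28 spotted 2-colour arrays. The deposited table holds 1 log ratio per spot, used here as log2, with base, direction, background correction and normalization not given in the sources used here. Per the labels, channel 1 held the mutant on every array, so no sign was turned. No 2 arrays of different strains with the same dye orientation correlated under -0.3 (lowest r = -0.147 over 158 pairs of arrays). Within pairs, the 2 arrays correlated above 0 in 4 of 14 pairs as centred (lowest r = -0.569, tgs1 at 30 °C), and the average array with the mutant in Cy5 correlated at -0.535 with the average array with it in Cy3. After each dye's mean was removed, 12 of 14 pairs correlated above 0, all but csn9 and tgs1 at 30 °C. None of these values settles the direction. No depth is known, and the number of arrays limits the precision.

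The median of an array was set to 0, and means were taken over the 6 spots of a probe and then over the 2 arrays of a pair. Gene symbols came from the platform annotation, and 982 of 982 identifiers matched RefSeq assembly R64. Of 1536 probes, 1457 had 1 symbol and 79 none, which were not used; 1456 were tested. The 14 pair means, in 10 groups, were tested against 0, 2-sided, with lmFit and eBayes of limma 3.58.1 under R 4.3.3. Residual degrees of freedom were 4, prior ones 6.63, and p-values were adjusted by Benjamini-Hochberg over all probes or genes of a comparison. The scripts were tested on simulated data. A second fit used the 28 single arrays with a dye term and no term for pairs, so the 2 arrays of a pair counted separately. Alternatives included scaling arrays, medians over spots or probes, another centring, 1 array of a pair alone and leaving out each 16 °C pair.

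The 2 genes and the pathway lists were chosen with earlier results of these data known. All probes of CBC2 and STO1 are named, up to 4 called genes with the largest log ratios of each list, and the 5 genes or 3 probes most alike by Pearson's r. The 5 most extreme neighbours of CBC2 on the arrays labelled isy1, its 2 neighbours among genes with 1 probe, and the probes ranked above STO1 in ist3 were named after their values were seen, as were the 4 import and binding partners on those arrays.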

Additional observations from a re-analysis of the deposited data

Results flagged for a closer look

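In tgs1, STO1 probe X rose against the other 2 STO1 probes between 30 °C and 16 °C by 0.48 ± 0.13 (adjusted p = 0.0485), and probe Z shifted against the other 2 by -0.54 ± 0.14 (adjusted p = 0.0485), where 4.85% of 701 probes were called. Both were picked because the test of the difference between temperatures passed. The 30 °C side is 1 pair. Leaving out the tgs1 pair at 25 or 40 min or the ynr004w pair at 10 or 40 min ended both calls, and leaving out the ynr004w pair at 25 min ended that of X (adjusted p from 0.0603 to 0.132 for X and from 0.0619 to 0.12 for Z). Scaled arrays ended both too (0.41, adjusted p = 0.101, and -0.35, adjusted p = 0.201). The same differences in ynr004w were 0.20 and -0.30 and were not called, and the difference between the strains' shifts, 0.28 for X and -0.25 for Z, was not called either (adjusted p = 0.995 for both). For each of the 4 member probes, the arrays of tgs1 and of ynr004w at 16 °C were checked for an array far from the others. None of these 8 sets held one. Groups of 1 pair could not be checked, and the split of CBC2, Y and Z by dye makes the check weak.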

How the results depend on the processing

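Of 1260 tested values over all alternatives to 96 results, 1174 kept their direction and side of the threshold, 45 lost a call, 17 gained one and 24 changed sign, none of the last called in either setting. The array numbers of a pair mark dye orientation: deviations of an array from its pair mean correlated over 0.1 in 91 of 91 pairs of conditions (lowest r = 0.292). With a dye term over single arrays, and the pairs themselves not modelled, 4 of 36 probe values were called in place of 13. CBC2 then stood at 0.22 in ist3 (adjusted p = 0.487) and at -0.17 in tgs1 at 16 °C (adjusted p = 0.354). CBC2 in ist3 also lost its call when centred on genes with 1 probe (0.21, adjusted p = 0.0567) and with arrays scaled to one spread (0.09, adjusted p = 0.369), which called 14 of 27 probe differences. Leaving out a single 16 °C pair at a time gave 9 to 16 of 36 called probe values and 9 to 11 of 27 differences. CBC2 in tgs1 at 16 °C then ran from -0.18 to -0.16. CBC2 in ist3 stayed at 0.22 by construction, since its own pair was never left out, and only its p-value could change. CBC2 lost its call in ist3 without the tgs1 pair at 10 or 25 min or the ynr004w pair at 40 min (adjusted p from 0.0561 to 0.0714), and in tgs1 at 16 °C without the tgs1 pair at 10 or 25 min (adjusted p = 0.0575 and 0.0586).

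Sign changes among uncalled values were as follows. With scaled arrays, Y stood at 0.16 in csn12 and 0.006 in tgs1 at 30 °C, Z at -0.001 in pci8, and the CBC2 shift in ynr004w at 0.018. Against the other probes, Y was then 0.066 in tgs1 at 30 °C and -0.062 for the tgs1 shift, and Z 0.009 for tgs1 against ynr004w. With medians over spots, csn9 had X at 0.082 and CBC2 at 0.055, YPR045C had the STO1 mean at 0.021, and csn12 had Y against the others at -0.063. With medians over probes, STO1 stood at 0.063 in csn12, 0.077 in tgs1 at 30 °C and 0.17 in YPR045C, at -0.081 for the ynr004w shift and 0.034 for tgs1 against ynr004w. Leave-one-out ranges that crossed 0 were -0.047 to 0.003 for Y in ynr004w at 16 °C, -0.091 to 0.045 for the CBC2 shift in ynr004w, and, for tgs1 against ynr004w, -0.24 to 0.011 for Z, -0.11 to 0.003 for the STO1 mean and -0.20 to 0.011 for Z against the others. For Y against the others they were -0.05 to 0.099 in tgs1 at 16 °C, -0.024 to 0.12 for its shift and -0.008 to 0.23 for the ynr004w shift.

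Single arrays of a pair, given with no test, turned CBC2 in ist3 to -0.30 and Y to 0.60 in YPR045C and 0.14 in ist3 (mutant in Cy5), and CBC2 in tgs1 at 16 °C to 0.63 and Z to 0.26 and 0.14 in tgs1 and ynr004w at 16 °C (mutant in Cy3). For these changes the cause was not tested.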
